A study of Homo sapiens with 7 samples.

Results

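The 9 genes described here are TBP, HPRT1, GAPDH, ACTB, B2M, PPIA, YWHAZ, PGK1 and SDHAF2, listed together as references for RT-PCR. They were taken by name as 9 of the 19978 genes in the deposited table. All 9 were expressed well enough to be among the 14863 genes tested. SDHAF2 is an assembly factor of succinate dehydrogenase, and the gene of that family usually used as a reference is SDHA. The table held 7 samples of HEK-293, an established human embryonic kidney cell line, kept for 48 h in DMEM. The control group (2 samples) was at pH 7.4 with the vehicle DMSO, the SRPIN340 group (2 samples) was at pH 7.4 with SRPIN340, an inhibitor of SR protein kinases, at 10 µM in DMSO, and the acidosis group (3 samples) was at pH 6.6 with DMSO. DMSO was thus shared by every group, and all samples came from 1 cell line. Sequencing of poly(A) RNA gave 13615816 to 24110460 estimated counts per sample, with the acidosis samples the shallowest.

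In quantitative RT-PCR, the amount of a target transcript is read as a ratio to a reference transcript measured in the same cDNA. The ratio cancels differences in input RNA, and it carries any change of the reference itself into the reported change of the target. Reference genes are usually taken from processes that every cell runs, such as transcription, nucleotide salvage, glycolysis, the cytoskeleton and protein folding, and their steadiness depends on the cells and the treatment.

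Of the 9 genes, TBP, HPRT1 and GAPDH have primer pairs among the study's designed oligonucleotides. Their products are shown because they define what an RT-PCR reference reads. Each was located by exact match to GENCODE release 44 transcripts on GRCh38, is given 5′ to 3′ on the transcript's strand, and has the primer sites in capitals (the reverse primer as its complement).
TBP: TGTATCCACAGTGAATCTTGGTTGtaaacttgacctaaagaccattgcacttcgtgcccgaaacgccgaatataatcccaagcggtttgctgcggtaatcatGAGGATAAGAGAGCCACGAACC
HPRT1: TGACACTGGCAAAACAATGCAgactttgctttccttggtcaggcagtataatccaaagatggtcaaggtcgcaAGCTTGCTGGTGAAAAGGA
GAPDH: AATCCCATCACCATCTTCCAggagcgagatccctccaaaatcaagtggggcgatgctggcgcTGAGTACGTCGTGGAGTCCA
All 3 products lie in coding sequence. The TBP product is 124 nt long and joins exons 4 and 5 (chr6:170564551-170566959). The HPRT1 product is 92 nt long (chrX:134493516-134498406). Its reverse primer spans the junction of exons 6 and 7 in the transcript, but it also matches the genome without a break. The GAPDH product is 82 nt long and joins exons 4 and 5 (chr12:6536768-6536978). Each product was found in transcripts of its own gene and of no other gene in that annotation. The genome held 1 exact match for each TBP and HPRT1 primer, against 12 for the forward and 2 for the reverse GAPDH primer. Each pair also framed 1 exact product in the genome within the length searched, of 2409 bases for TBP, 4891 for HPRT1 and 211 for GAPDH. Products above a set length were not sought, either in transcripts or in the genome. The study's RNA isolation included a DNase step. GENCODE names 65 pseudogenes of GAPDH, 89 of PPIA, 12 of ACTB, 9 of YWHAZ, 3 of HPRT1 and 2 of PGK1, and 0 of TBP, B2M and SDHAF2. Counts of genes with near-identical copies are uncertain where the authors' quantification could share reads between the copies.

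The levels of the 9 genes differed widely. Per kilobase of the canonical transcript, on the scale of CPM (counts scaled to a common library total, here with TMM factors), the control means were 1720 for GAPDH and 1370 for ACTB. They were 436 for PPIA, 257 for B2M, 130 for YWHAZ, 88.6 for PGK1 and 69 for HPRT1. SDHAF2 at 14.9 and TBP at 14.4 were the lowest, with control samples that overlapped once their spread was considered. Lengths were taken from 1 transcript per gene, so these levels are approximate. The 7 markers of HEK-293 cells that were checked were all detected, and their summed level was 1410 to 1460 CPM in control, 1410 to 1480 CPM with SRPIN340 and 3500 to 3520 CPM in acidosis. Most of that rise was in VIM, which went from a mean of 867 to 2710 CPM, while PAX2 went from 6.78 to 1.82 CPM and KRT18 from 122 to 102 CPM. Of 8 markers of other cell types, CD3E, which marks T cells, was at 0 in every sample. EPCAM made up nearly all of that list's summed level of 140 to 156 CPM in control, 166 to 173 CPM with SRPIN340 and 263 to 269 CPM in acidosis. The part of these markers in the results was not tested.

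Acidosis moved the reference genes apart. GAPDH, ACTB, PPIA, YWHAZ and B2M rose more than 2.1-fold relative to the typical gene, PGK1 rose 1.38-fold, HPRT1 had a fold of 0.988, TBP fell to 0.779 of its control level and SDHAF2 fell to 0.315. In all, 8 of 9 passed the quasi-likelihood test of edgeR (p adjusted by Benjamini-Hochberg over all genes tested, under 0.05), 6 higher and 2 lower. Over all genes, 66.7% passed, 32.5% higher and 34.2% lower. With an absolute log2 fold change over 1 as well, 5 of the 9 were higher and 1 lower, where 14.4% and 19.1% of all genes were. The median log2 fold change was 1.13 over the 9 genes and -0.05 over all genes tested. The acidosis samples all exceeded both control samples for 6 of the 9 and all fell short of them for 2, which was so for 37% and 39.4% of all genes. In bulk RNA, more of a transcript per cell and a changed mixture of cell states cannot be told apart. The labels number the repeats, and the study's methods call them biological repeats.

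**Figure D1:**
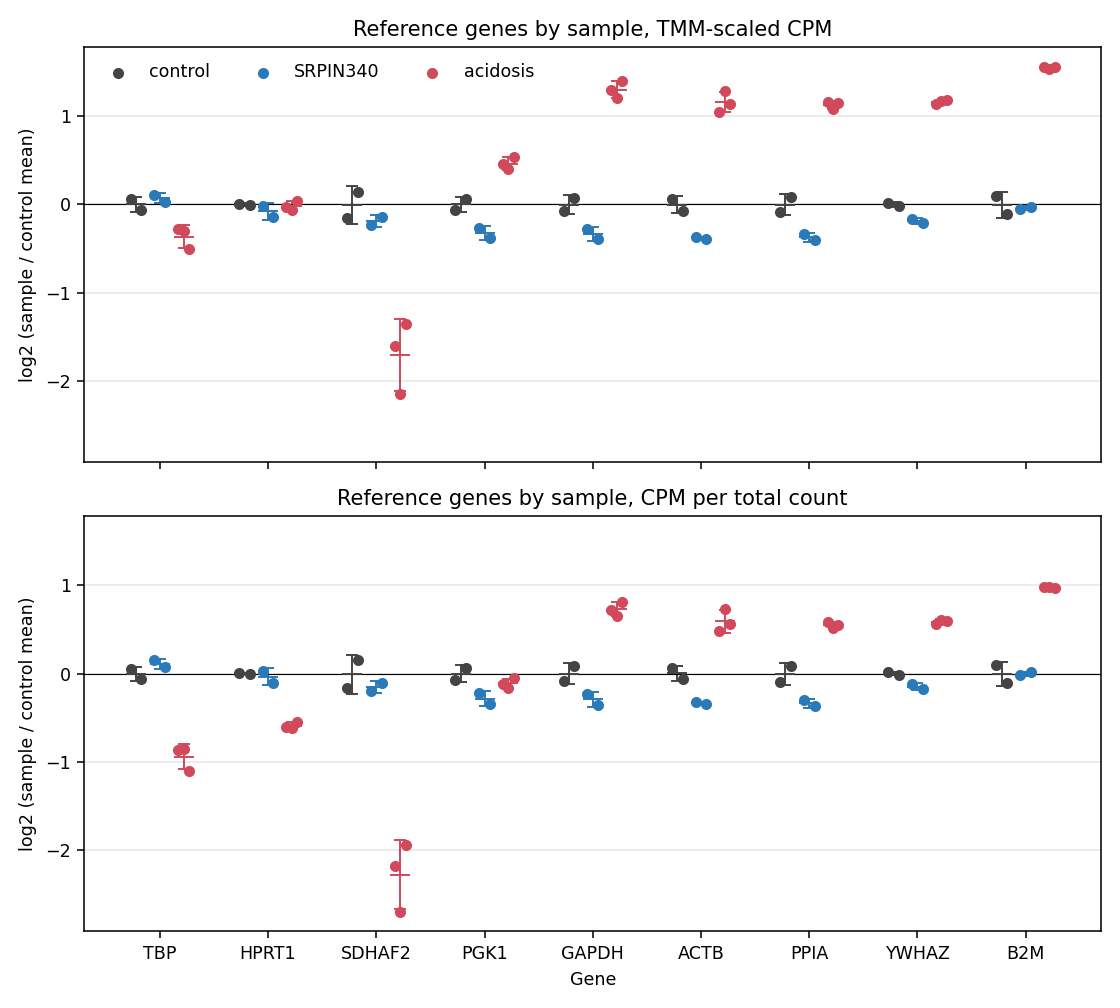
Level of each reference gene in each sample as log2 of its ratio to the control mean, with TMM-scaled CPM above and CPM per total count below. Points are samples (2 control, 2 SRPIN340, 3 acidosis), short horizontal bars are group means and whiskers are SD. The acidosis points of B2M, GAPDH, ACTB, PPIA and YWHAZ lie above control in both panels, those of TBP and SDHAF2 below, and those of HPRT1 and PGK1 move between the panels.

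TBP, the TATA-binding protein at the core of the general transcription factor TFIID, is the reference for relative gene expression in the study's RT-PCR. For exon inclusion, the study used a neighbouring constitutive exon of the same gene as the reference instead. TBP (ENSG00000112592.15, chr6:170554302-170572870) was at 28.0 and 25.7 CPM in control, at 28.9 and 27.4 CPM with SRPIN340 and at 22, 21.8 and 18.8 CPM in acidosis. All 3 acidosis samples lay below the other 4, and the control and SRPIN340 samples overlapped. TBP averaged 26.8 CPM in control (SD 1.6, n = 2) and 20.9 CPM in acidosis (SD 1.77, n = 3). This was a log2 fold change of -0.36 (standard error 0.119, 95% interval -0.627 to -0.0928, adjusted p = 0.0225 from edgeR). It rested on few counts, 776 and 732 in control against 371, 237 and 219 in acidosis. TBP no longer passed without control replicate 1 (log2 fold change -0.30, adjusted p = 0.128 from edgeR) or without acidosis replicate 3 (-0.29, adjusted p = 0.0627), nor with libraries scaled to HPRT1 alone (adjusted p = 0.0506). A list of 16 other genes held subunits of TFIID and the TBP-like factor TBPL1. Of these 16 genes, 7 rose (TBPL1 among them), 3 fell and 6 did not pass, with a median of 0.29. With total-count scaling 4 of them rose and 8 fell, and the median turned to -0.29. For this and each following list, the shares over all genes were 32.5% higher and 34.2% lower with TMM, and 16.2% and 55% with total count. With TMM, the largest changes of TFIID genes were in TAF13 (1.38) and TAF11 (-1.15), which encode histone-fold subunits of TFIID.

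HPRT1, the purine salvage enzyme that recycles hypoxanthine and guanine, was the member nearest to the typical gene. HPRT1 (ENSG00000165704.15, chrX:134460165-134520513) was at 96.9 and 95.5 CPM in control, at 95.4 and 86.9 CPM with SRPIN340 and at 94.2, 92.0 and 99.0 CPM in acidosis. The acidosis samples lay on both sides of the control samples. Its log2 fold change in acidosis was -0.02 (95% interval -0.192 to 0.157, adjusted p = 0.851 from edgeR), an absolute change smaller than in all but 1.19% of the genes tested. Its sign turned with RLE scaling (0.01) and without acidosis replicate 2 (0.01). Purine synthesis and salvage genes did not keep to HPRT1's level: of 18 tested, 9 rose, 6 fell and 3 did not pass, from 2.04 for PRPS1, which makes the ribose phosphate donor, to -1.72 for ADSL, an enzyme of de novo synthesis. With total-count scaling 4 of the 18 rose and 9 fell.

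GAPDH, the glycolytic dehydrogenase that oxidises glyceraldehyde 3-phosphate, rose in acidosis. GAPDH (ENSG00000111640.15, chr12:6534512-6538374) was at 2095 and 2329 CPM in control, at 1827 and 1684 CPM with SRPIN340 and at 5446, 5109 and 5832 CPM in acidosis. Every acidosis sample was more than 2-fold above every other sample. GAPDH averaged 2210 CPM in control (SD 165, n = 2) and 5460 CPM in acidosis (SD 362, n = 3), for a log2 fold change of 1.3 (standard error 0.0745, 95% interval 1.14 to 1.47, adjusted p = 3.39e-07 from edgeR).

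PGK1 acts on the product of GAPDH and makes ATP. PGK1 (ENSG00000102144.15, chrX:77910739-78129295) was at 408.3 and 444.7 CPM in control, at 354.9 and 327.5 CPM with SRPIN340 and at 584.6, 561.5 and 619.1 CPM in acidosis. The acidosis samples were the highest and the SRPIN340 samples the lowest, with no overlap. PGK1 had a log2 fold change of 0.46 in acidosis (standard error 0.0703, 95% interval 0.306 to 0.622, adjusted p = 0.000246 from edgeR), which was -0.11 with scaling to the total count only (adjusted p = 0.164). The direct difference between these neighbours in the pathway, the GAPDH to PGK1 ratio, rose by 0.84 on the log2 scale. Of 15 other glycolysis genes, 13 rose, 0 fell and 2 did not pass, with a median of 0.67, from 0.43 for PFKP, a phosphofructokinase, to 1.40 for HK2, a hexokinase. With total-count scaling, 7 of the 15 rose and 1 fell.

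ACTB, cytoplasmic beta-actin, rose to a similar degree. ACTB (ENSG00000075624.17, chr7:5526409-5563902) was at 2604 and 2367 CPM in control, at 1926 and 1894 CPM with SRPIN340 and at 5167, 6065 and 5511 CPM in acidosis. The 3 groups did not overlap, with acidosis highest and SRPIN340 lowest. Acidosis gave ACTB a log2 fold change of 1.17 (95% interval 1 to 1.33, standard error 0.0741, adjusted p = 6.79e-07 from edgeR). Of 11 tested genes of actin and its monomer binding, 7 rose, 2 fell and 2 did not pass, against 6 and 4 with total-count scaling. ACTG1, the gamma-actin partner of ACTB in the cytoplasm, went from 2380 CPM in control (SD 139, n = 2) to 7790 CPM in acidosis (SD 323, n = 3), and its log2 fold change was 1.71 (adjusted p = 2.6e-08 from edgeR). TMSB4X, which sequesters actin monomers, had the highest value of the list (1.80), and ACTN1, an actin cross-linker, the lowest (-0.90). Reads of ACTB and ACTG1 may be shared, since their coding sequences are alike.

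B2M, the constant light chain of MHC class I molecules, had the largest rise of the 9 under TMM scaling. B2M (ENSG00000166710.23, chr15:44711358-44718851) was at 259.7 and 224.4 CPM in control, at 232.8 and 237.8 CPM with SRPIN340 and at 716.3, 703.9 and 714.4 CPM in acidosis. The acidosis samples lay close together and far above the other 4, which overlapped. Acidosis gave B2M a log2 fold change of 1.56 (standard error 0.0728, 95% interval 1.39 to 1.72, adjusted p = 1.08e-07 from edgeR). Of 12 genes of MHC class I and peptide loading, 11 rose, 0 fell and 1 did not pass, with a median of 1.20. HLA-B, a heavy chain that pairs with B2M, had a log2 fold change of 1.46. ERAP1, which trims peptides, had the smallest value past the test (0.29, adjusted p = 0.0277 from edgeR) and lost it without control replicate 1, control replicate 2, acidosis replicate 1 or acidosis replicate 2 (adjusted p = 0.062, 0.176, 0.0538 and 0.0576). With total-count scaling, 8 of the 12 rose and 2 fell.

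PPIA, cyclophilin A, is a peptidyl-prolyl isomerase of the cytosol. PPIA (ENSG00000196262.15, chr7:44796680-44824564) was at 918.2 and 1032 CPM in control, at 772.1 and 735.3 CPM with SRPIN340 and at 2181, 2063 and 2161 CPM in acidosis. Its groups did not overlap, with acidosis highest and SRPIN340 lowest. Its value in acidosis was a log2 fold change of 1.13 (standard error 0.0653, 95% interval 0.984 to 1.28, adjusted p = 3.64e-07 from edgeR). Of 13 other cyclophilin genes, 9 rose, 3 fell and 1 did not pass, from 1.31 for PPIB, the cyclophilin of the endoplasmic reticulum, to -1.56 for PPID, a partner of HSP90. With total-count scaling the balance turned, with 4 higher and 6 lower and a median of -0.19.

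YWHAZ encodes 14-3-3 zeta, an adaptor that binds phosphorylated proteins. YWHAZ (ENSG00000164924.18, chr8:100916523-100953388) was at 662.6 and 644.2 CPM in control, at 583.3 and 563.8 CPM with SRPIN340 and at 1444, 1469 and 1482 CPM in acidosis. The groups were separate and each was tight. Acidosis gave YWHAZ a log2 fold change of 1.16 (standard error 0.0526, 95% interval 1.05 to 1.28, adjusted p = 8.86e-08 from edgeR). Of the 6 other 14-3-3 genes, 4 rose and 2 fell, against 3 and 2 with total-count scaling. YWHAH, a paralogue, went up by 1.58 on the log2 scale, and SFN, the epithelial sigma form, changed by -1.53 at a control level of 5.43 CPM.

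SDHAF2, an assembly factor that helps attach FAD to succinate dehydrogenase, had the largest absolute change of the 9 with TMM and all 7 samples. SDHAF2 (ENSG00000167985.7, chr11:61430042-61446733) was at 15.8 and 19.4 CPM in control, at 14.9 and 15.9 CPM with SRPIN340 and at 5.76, 3.95 and 6.88 CPM in acidosis. All acidosis samples lay below the other 4. The log2 fold change was -1.66 (standard error 0.21, 95% interval -2.14 to -1.19, adjusted p = 7.09e-05 from edgeR). Without acidosis replicate 2 it was -1.49, smaller in size than B2M at 1.57, and relative to TBP it was -1.30 against 1.93 for B2M. SDHAF2 had the widest interval of the 9, at 438 and 554 counts in control and 97, 43 and 80 in acidosis. Among the other 7 genes of succinate dehydrogenase and its assembly, 4 rose, 0 fell and 3 did not pass, whereas with total-count scaling 2 rose and 3 fell. SDHAF4, another assembly factor, had a log2 fold change of 1.25, SDHD, a membrane subunit, 0.53, and SDHA, the flavoprotein subunit itself, -0.12 (adjusted p = 0.201 from edgeR).

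The reading of single genes depended on how libraries were scaled, because the scalings place the typical gene at different points. With total count only in place of TMM, the median over all genes tested moved on the log2 scale from -0.05 to -0.63, and that of the 9 genes from 1.13 to 0.56. HPRT1 then had a log2 fold change of -0.59, which passed the edgeR test (adjusted p = 6.38e-05), near the median of all genes. TBP was at -0.93 and SDHAF2 at -2.24. GAPDH was at 0.73, ACTB and YWHAZ at 0.59, PPIA at 0.56 and B2M at 0.98, all higher, and PGK1 did not pass. In total, 8 of 9 passed under this scaling, 5 higher and 3 lower, where 71.3% of all genes passed, 16.2% higher and 55% lower. A single gene of the 9, SDHAF2, then also exceeded an absolute log2 fold change of 1, against 40.5% of all genes. Upper quartile factors gave values in between, with medians of 0.97 over the 9 and -0.22 over all genes. The spread between the 9, from the lowest to the highest log2 fold change, was 3.22 under each of these scalings and with RLE, since a scaling shifts all genes alike.

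**Figure D2:**
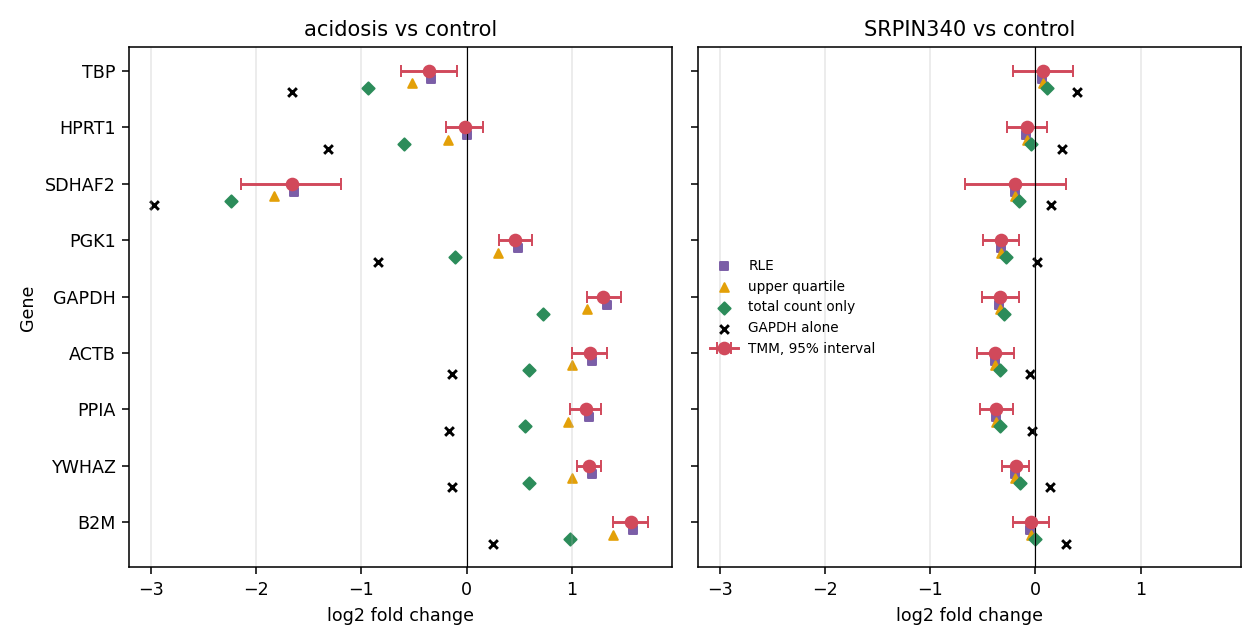
Log2 fold changes of the 9 genes against control in acidosis (left) and with SRPIN340 (right). Circles with bars are TMM-scaled values with 95% intervals, and the other symbols are the same contrast under RLE, upper quartile, total-count or GAPDH-alone scaling. In acidosis the whole set shifts left from TMM to total count to GAPDH, and its order is kept.

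Using 1 reference gene as the whole scaling moved the picture of the transcriptome. Scaling to TBP alone put the median of all genes at a log2 fold change of 0.31 in acidosis, with 42.1% of genes higher and 21.9% lower. All 8 remaining reference genes passed, 7 higher and 1 lower, and HPRT1 was then 0.35 higher (adjusted p = 0.0316 from edgeR). Scaling to HPRT1 alone gave a median of -0.03, with 32.3% higher and 32.8% lower. Of the 8 remaining genes, 6 were then higher, SDHAF2 was lower, and TBP did not pass (adjusted p = 0.0506 from edgeR). The ratio of TBP to HPRT1 thus lay on either side of the limit, depending on which of them set the scaling. Scaling to GAPDH alone gave a median of -1.36, with 4.43% higher and 78.3% lower, and 5 of the 8 remaining genes passed, all lower. These were TBP, HPRT1, PPIA, PGK1 and SDHAF2. The geometric mean of all 9 gave a median of -0.57, close to that of total-count scaling. The GAPDH and HPRT1 scalings were chosen after seeing the data. Each fit scaled to 1 gene took that gene's counts as exact. The noise of that gene is then shared by all genes, so these p-values can be too small.

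The ratio of the counts of a pair of genes in a sample needs no library scaling, and RT-PCR also reads a ratio of 2 genes. The counts cover all transcripts of a gene in poly(A) RNA, whereas RT-PCR reads 1 short product per gene. Among the 36 pairs, the mean log2 ratio changed by over 0.5 in 24 pairs in acidosis, by over 1 in 19 and by over 2 in 6. The pairs that changed by over 2 all held SDHAF2. With SRPIN340, 13 pairs changed by over 0.25 and 0 by over 0.5. Both comparisons share the control samples. With the smaller tail doubled, an exact permutation test of a single ratio cannot go below p = 0.2 for 2 against 3 samples. For 2 against 2 samples the limit of that test is 0.333. The ratios to TBP, HPRT1 and GAPDH were tested in the edgeR fits scaled to those genes alone. There GAPDH relative to TBP had adjusted p = 4.26e-08 from edgeR, which can be too small because TBP's own noise was shared by all genes. The changes of the other ratios are given as descriptions.

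The TBP to HPRT1 log2 ratio was -1.79 and -1.89 in control, -1.72 and -1.67 with SRPIN340 and -2.10, -2.08 and -2.40 in acidosis. The acidosis ratios were thus all the lowest, and the mean change was -0.35. This change passed in the edgeR fit scaled to TBP (adjusted p = 0.0316) and not in the edgeR fit scaled to HPRT1 (adjusted p = 0.0506). The TBP to GAPDH log2 ratio was -6.23 and -6.50 in control, -5.98 and -5.94 with SRPIN340 and -7.95, -7.88 and -8.28 in acidosis. A target held constant against TBP would differ 3.18-fold from one held constant against GAPDH between acidosis and control. The HPRT1 to GAPDH ratio in acidosis was 0.4 of that in control. The largest change of any pair was that of B2M to SDHAF2, which was 9.54-fold.

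Other pairs stayed close. The ACTB to YWHAZ log2 ratio averaged 1.93 ± 0.0688 (SD, n = 2) in control and 1.93 ± 0.106 (SD, n = 3) in acidosis. The PPIA to YWHAZ mean changed by -0.03, the ACTB to PPIA mean by 0.03 and the GAPDH to PPIA mean by 0.17. The means of pairs with B2M moved further, by 0.43 for B2M to PPIA, 0.40 for B2M to YWHAZ and -0.39 for ACTB to B2M.

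**Figure D3:**
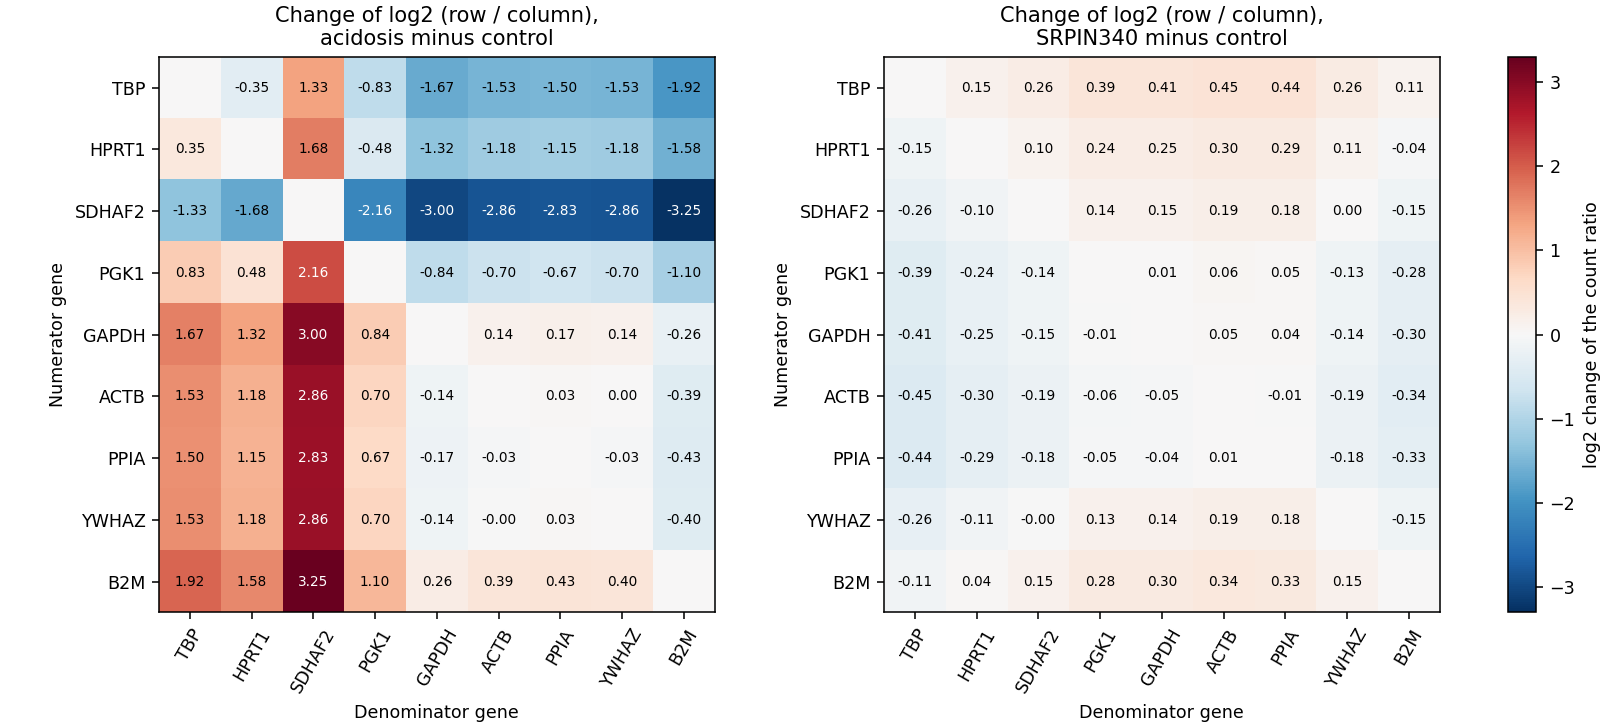
Change of the mean log2 count ratio of each pair (row gene over column gene) in acidosis (left) and with SRPIN340 (right) relative to control. Red is a higher and blue a lower ratio, and each cell prints its value. In acidosis the SDHAF2 row and column hold changes of up to 3.25 in size, while GAPDH, ACTB, PPIA and YWHAZ form a pale block, and with SRPIN340 no change exceeds 0.5.

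A stability value M, the mean SD over samples of a gene's log2 ratio to each other member, summarised the pairs. Lower values are steadier. Over the 7 samples M was lowest for YWHAZ (0.503), PPIA (0.519), PGK1 (0.532), ACTB (0.539) and GAPDH (0.562). It was 0.619 for B2M, 0.652 for HPRT1, 0.807 for TBP and 1.37 for SDHAF2. When the least steady gene was removed step by step, SDHAF2, TBP, HPRT1, PGK1 and B2M left in that order, and GAPDH and PPIA remained as the last pair (M = 0.0931). Among the 4 samples at pH 7.4 the mean M was 0.156, against 0.678 over all 7, and TBP was the least steady (0.203). M therefore ranked the genes that rose in acidosis as the steadiest, whereas the spread of the TMM-scaled level ranked HPRT1 first. M compares the members only with each other, and 5 of the 9 had moved together.

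The SD of log2 CPM over the 7 samples gave each gene's spread under a chosen scaling. Under TMM it was 0.0607 for HPRT1, and only 0.492% of the 4678 genes that averaged 50 CPM or more were steadier. It was 0.231 for TBP, 0.365 for PGK1, 0.678 for YWHAZ, 0.846 for B2M and 0.9 for SDHAF2, where the median of the 4678 genes was 0.398. Under total-count scaling PGK1 was the steadiest member (0.131, with 10.5% of those genes steadier), and HPRT1 was at 0.31 (44.4% steadier). The PGK1 level per total count averaged 502 CPM in control (SD 33.3, n = 2), 413 CPM with SRPIN340 (SD 23.7, n = 2) and 465 CPM in acidosis (SD 17.8, n = 3).

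TBP (mean of 24.7 CPM) and SDHAF2 (11.8 CPM) were below 50 CPM and so outside a ranking of genes at or above that level. The ranking used the largest of a gene's SDs under TMM, RLE and total-count scaling. None of the other members was among the 5 genes with the smallest value. These were WDR45B, which acts in autophagy, CAST, the calpain inhibitor calpastatin, CD99L2, a membrane protein, MAT2A, which makes S-adenosylmethionine, and STK35, a kinase. The largest of their 3 SDs lay between 0.17 and 0.177, and the median over the 4678 genes was 0.52. Their log2 fold changes in acidosis were 0.25 to 0.32 with TMM and -0.33 to -0.25 with total count. They lie between the scalings, and they were picked by their values, so this is a description. HPRT1 was steadier than all 5 with TMM alone, and PGK1 with total count alone.

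**Figure D4:**
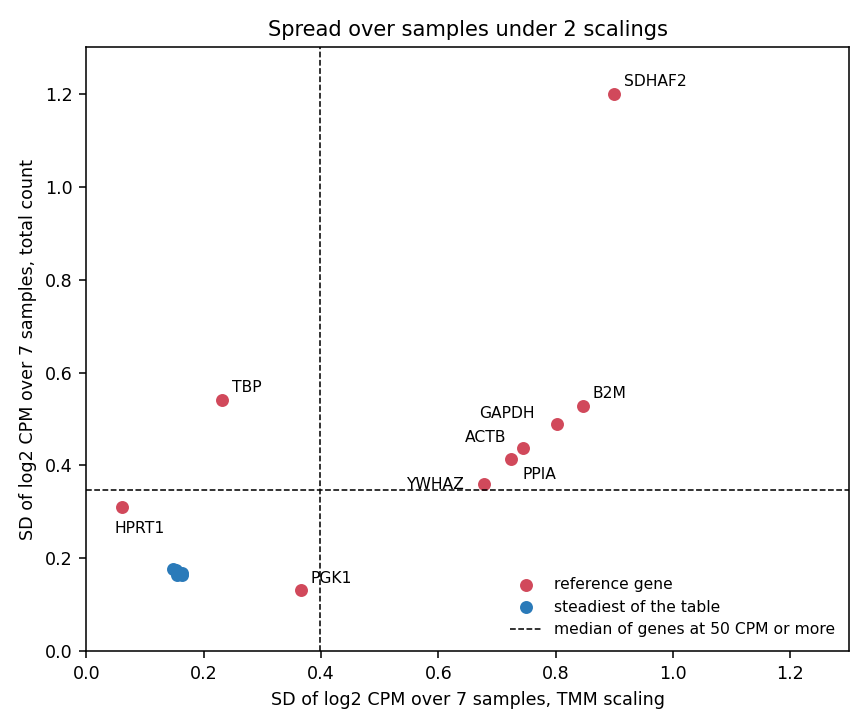
SD of log2 CPM over the 7 samples under TMM scaling (x axis) and total-count scaling (y axis). Points are the 9 reference genes and the 5 genes picked for the smallest value of their largest SD. Dashed lines are medians of the 4678 genes at 50 CPM or more. HPRT1 is far left, PGK1 is lowest, and B2M, GAPDH, ACTB, PPIA and YWHAZ lie beyond both medians together with SDHAF2.

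SRPIN340 moved the reference genes little. ACTB fell by 0.38 (95% interval -0.555 to -0.204, adjusted p = 0.0425 from edgeR) and PPIA by 0.37 (95% interval -0.527 to -0.216, adjusted p = 0.033) on the log2 scale, and the other 7 did not pass. These 2 of 9 compare with 2.3% of all genes past the test, 1.53% lower. No member also exceeded an absolute log2 fold change of 1, as 0.323% of all genes did. GAPDH had a value of -0.33 (adjusted p = 0.0619), PGK1 -0.32 (adjusted p = 0.063) and YWHAZ -0.19 (adjusted p = 0.122), all from edgeR. Both SRPIN340 samples lay below both control samples for 6 of the 9, which was so for 26.8% of all genes. TBP (0.07, 95% interval -0.215 to 0.356), HPRT1 (-0.08, -0.267 to 0.111), B2M (-0.04, -0.211 to 0.13) and SDHAF2 (-0.19, -0.673 to 0.292) had intervals that included 0. The median was -0.19 over the 9 and 0.00 over all genes.

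Each of the calls of ACTB and PPIA was lost in 5 of the 7 fits that left out 1 sample, with log2 fold changes of -0.449 to -0.309 for ACTB and -0.453 to -0.287 for PPIA over all 7 fits. Without a control or SRPIN340 sample that group has 1 sample, which is assumed to vary like the other groups. ACTB was lost without control replicate 1, control replicate 2, either SRPIN340 replicate or acidosis replicate 3 (adjusted p of 0.065 to 0.288 from edgeR). PPIA was lost without control replicate 2, either SRPIN340 replicate, acidosis replicate 1 or acidosis replicate 3 (adjusted p of 0.0527 to 0.276). Without acidosis replicate 2, GAPDH (adjusted p = 0.041) and PGK1 (adjusted p = 0.0499) passed as well. DESeq2 passed 5 of the 9, adding GAPDH, YWHAZ and PGK1. Of the list of 15 other glycolysis genes, 5 fell and 1 rose with SRPIN340, where 1.53% of all genes were lower and 0.767% higher. Those that fell included PKM, pyruvate kinase, at -0.63 (adjusted p = 0.000878 from edgeR) and TPI1, triosephosphate isomerase, at -0.57 (adjusted p = 0.00384). ENO2 was the gene that rose (0.51, adjusted p = 0.0323 from edgeR). These were named after their values were seen.

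Tested directly against SRPIN340, acidosis gave the same 8 members past the test, 6 higher and 2 lower. Over all genes 67.8% passed, 32.8% higher and 35% lower. GAPDH (1.64), B2M (1.60), ACTB (1.55), PPIA (1.5) and YWHAZ (1.35) were followed by PGK1 at 0.79. HPRT1 was at 0.06 (95% interval -0.115 to 0.235), TBP at -0.43 (adjusted p = 0.00917 from edgeR) and SDHAF2 at -1.47. TBP did not pass here without SRPIN340 replicate 1 (-0.40, adjusted p = 0.0721 from edgeR).

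A wider list of 50 other reference genes was split in acidosis. With TMM scaling 35 rose, 9 fell and 6 did not pass, with a median of 0.54. With total-count scaling 21 rose and 21 fell, with a median of -0.04, where 16.2% of all genes were higher and 55% lower. EIF4A2, a translation initiation helicase, had the highest value, from 117 CPM in control (SD 0.681, n = 2) to 592 CPM in acidosis (SD 42, n = 3), or 2.34 as a log2 fold change (adjusted p = 1.57e-08 from edgeR). TFRC, the transferrin receptor, had 2.08 and SNRPD3, a core protein of spliceosomal snRNPs, 1.70. TUBB, beta-tubulin, had the lowest value, from 1980 CPM in control (SD 41.4, n = 2) to 493 CPM in acidosis (SD 26.3, n = 3), or -2 as a log2 fold change (adjusted p = 8.77e-09 from edgeR). IPO8, a nuclear import receptor, had -1.71 and POP4, a subunit of RNase P, -1.70.

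The smallest absolute changes of that list were in ABL1, a tyrosine kinase, and PSMB4, SDHA and PSMC4. ABL1 was at 106 and 109 CPM in control, 112 and 111 CPM with SRPIN340 and 112, 106 and 108 CPM in acidosis, so its groups overlapped. Its log2 fold change was 0.02 (adjusted p = 0.836 from edgeR) with TMM and -0.56 with total count. PSMB4 and PSMC4, proteasome subunits, had 0.07 and 0.12 with TMM and -0.50 and -0.45 with total count. SDHA passed without control replicate 1 (-0.22, adjusted p = 0.0381 from edgeR) and PSMC4 without acidosis replicate 2 (0.18, adjusted p = 0.0473). The genes nearest 0 with TMM thus had negative values with total-count scaling, as HPRT1 did. With SRPIN340, 4 of the 50 fell and 1 rose, and 45 did not pass. Over all genes, 1.53% were lower and 0.767% higher with SRPIN340.

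The choice of reference set the size of a target's change in these counts. SNRPD3, which the study also read by RT-PCR, rose 4.18-fold relative to TBP and 3.29-fold relative to HPRT1 in acidosis. The value was 2.36-fold relative to PGK1, 1.49-fold relative to PPIA, 1.45-fold relative to ACTB or YWHAZ, 1.32-fold relative to GAPDH and 1.11-fold relative to B2M. It was 10.3-fold relative to SDHAF2. MYCN, a transcription factor expressed at a low level (3.75 ± 1.28 CPM in control, SD, n = 2), had log2 values from -3.65 relative to B2M to -0.43 relative to SDHAF2, with -1.74 relative to TBP. The sign of both targets' relative values in acidosis was thus the same under all 9 references, but these values are differences of estimates without a test. SNRPD3 relative to B2M was 0.146 on the log2 scale, where the standard errors were 0.0954 for SNRPD3 and 0.0728 for B2M. For MYCN relative to SDHAF2 they were 0.327 and 0.21. The direction is not settled under these references. With SRPIN340 the range was narrow, from 0.26 (TBP) to 0.71 (ACTB) for SNRPD3 and from 0.39 to 0.84 for MYCN, and neither gene passed the edgeR test with TMM (adjusted p = 0.13 and 0.499).

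**Figure D5:**
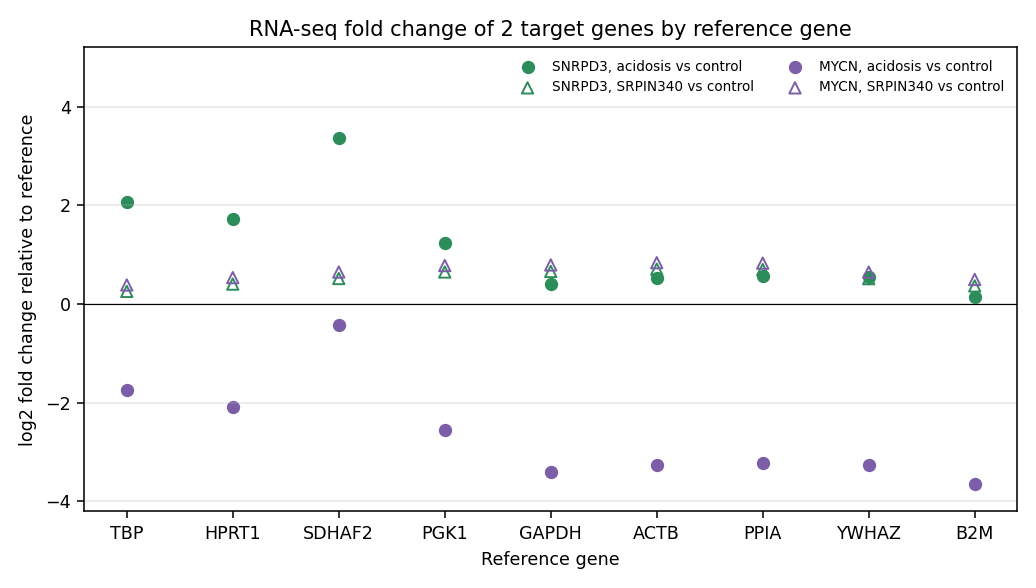
Log2 fold change of SNRPD3 and MYCN relative to each of the 9 reference genes, in acidosis (filled circles) and with SRPIN340 (open triangles) against control. In acidosis the SNRPD3 points range from 0.15 with B2M to 3.37 with SDHAF2 and the MYCN points from -3.65 to -0.43, while the SRPIN340 points lie between 0.26 and 0.84.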

How the data were processed

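RNA-seq of 7 HEK-293 samples was used. The authors trimmed reads (Trimmomatic 0.39, Trim Galore 0.6.6), quantified transcripts with Salmon 1.5.1 on Gencode GRCh38 transcripts, and used tximport to sum them by gene. The deposited values are thus estimated counts for each gene without normalization across samples. The tximport option is not given in the sources used here. Of 19978 identifiers, 19977 matched GENCODE release 44 symbols.

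Counts were rounded. The main test was edgeR's quasi-likelihood fit (edgeR 4.0.16, R 4.3.3, TMM scaling, filterByExpr, 14863 genes, all 7 samples in 1 fit without covariates, Benjamini-Hochberg adjustment). Genes passed at an adjusted p under 0.05. Standard errors and 95% intervals come from the test statistic. CPM use TMM-scaled totals unless stated. The test was checked on simulated counts with 100 genes changed 1.5-fold and 100 changed 3-fold. Of the 1.5-fold changes, edgeR recovered 53% in the acidosis and 42% in the SRPIN340 comparison. Of the 3-fold changes, it recovered 99% and 100%. With so few genes changed, this does not test the scaling in acidosis. Alternatives were RLE, upper quartile, total count, and scaling to the 9 genes' geometric mean or to 1 of them, DESeq2 1.42.0, 2 filters, 2-group fits, a replicate block, each sample left out and, for M, 1 count added or pH 7.4 samples only. The 9 genes and all lists (50 further reference genes and 8 families) were chosen with earlier results of these data known. Genes named from a list are its extremes past the test, and from the further reference genes the 4 highest, 4 lowest and 4 smallest changes with a mean of at least 10 CPM. Some genes that these rules name are not reported here. ACTG1, SNRPD3 and MYCN were added, as were the 5 steadiest genes and the 3 most like TBP. Steadiest meant the smallest value of the largest SD under TMM, RLE and total count (mean of at least 50 CPM). Primers were placed with Python 3.11.15, and figures used matplotlib 3.10.9.

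Totals were 13615816 to 24110460 counts, and all pairs of replicates differed by more than counting noise. Samples with the same replicate number did not deviate together (r of -0.146 to 0.0715 across genes), so numbers were not used as pairs.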

Additional observations from a re-analysis of the deposited data

How the results depend on the processing

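In acidosis against control, 8 genes passed under RLE, upper quartile, total-count, geometric-mean and TBP scaling, DESeq2, both filters and 2-group fits. With total count and the geometric mean, HPRT1 took the place of PGK1. With TBP scaling, HPRT1 took the place of TBP, which that scaling holds constant and leaves untested. Scaling to HPRT1 passed 7 and scaling to GAPDH 5 (5 also against SRPIN340), and both were chosen after seeing the data. The median of 1.13 became 0.966 (upper quartile), 0.555 (total count), 0.608 (geometric mean), 1.49 (TBP), -0.17 (GAPDH) and 1.08 (mean of at least 6 CPM), and 1.04 to 1.13 with 1 sample left out. Of the 2 genes passed with SRPIN340, 1 remained with total count (PPIA), 0 with the geometric mean, TBP, GAPDH or HPRT1 as scaling, and DESeq2 passed 5, with 0 to 4 when 1 sample was left out. The SRPIN340 median of -0.191 became -0.151 (total count), 0.0134 (geometric mean), -0.267 (TBP) and 0.142 (GAPDH), and -0.309 to -0.191 with 1 sample left out. The mean M of 0.678 was 0.156 at pH 7.4 only. The shifts between scalings follow from their construction, and other causes were not tested.

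Replicate numbers were not shown to pair samples. With a replicate block, 7 genes passed in acidosis (TBP at -0.293, adjusted p = 0.0937 from edgeR, did not), 8 against SRPIN340 and 0 with SRPIN340 (ACTB and PPIA at adjusted p = 0.126 and 0.117). It changed no other call of the 9.

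Signs turned as follows in acidosis. HPRT1 was 0.00673 (RLE), 0.351 (TBP) and -0.048 to 0.00676 with 1 sample left out. PGK1 was -0.111 (total count), -0.0594 (geometric mean) and -0.839 (GAPDH). With GAPDH, ACTB was -0.137, PPIA -0.17 and YWHAZ -0.141. ABL1 was -0.147 (upper quartile), -0.558 (total count), -0.506 (geometric mean), -0.0115 (no filter), -0.0362 (at least 6 CPM), -0.00738 (2 groups), and -0.00309 to 0.0355 with 1 sample left out (negative without control or acidosis replicate 1). PSMB4 was -0.0935, -0.504 and -0.453 and PSMC4 -0.0413, -0.452 and -0.401 under upper quartile, total count and geometric mean. Under total count and geometric mean, PFKP was -0.147 and -0.0974 and ERAP1 -0.284 and -0.232, SDHD was -0.0418 under total count, and SDHA was 0.245 with TBP. With SRPIN340, the geometric mean gave 0.123 (HPRT1), 0.161 (B2M), 0.0137 (YWHAZ) and 0.0134 (SDHAF2), GAPDH gave 0.251, 0.287, 0.142 and 0.151 for the same genes and 0.0109 for PGK1, and B2M was 0.0418 with HPRT1 and -0.144 to 0.0689 with 1 sample left out (positive without control replicate 1). PFKP did not pass without control replicate 2 (0.348, adjusted p = 0.0579 from edgeR).

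TBP and SDHAF2 had at most 785 counts in a sample, so their intervals are the widest, and RNA per cell cannot be known from these counts.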

Other observations

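The 4 reference genes with the highest CPM, not divided by transcript length, were among a class of genes that mostly rose in acidosis. Genes were grouped by their mean CPM in the SRPIN340 samples, which do not enter the acidosis contrast against control, and the limits were set after seeing the data. Of the 161 genes at 500 CPM or more, which include GAPDH, ACTB, PPIA and YWHAZ, 78.3% rose and 17.4% fell, with a median log2 fold change of 0.99 with TMM and 0.42 with total count. Of the 1764 genes at 100 to 500 CPM, with B2M and PGK1, 53% rose and 30.9% fell, with a median of 0.27 with TMM and -0.31 with total count. Of the 8328 genes at 10 to 100 CPM, with TBP, HPRT1 and SDHAF2, 35.1% rose and 39.6% fell, with medians of -0.08 and -0.66 (TMM and total count). The 9 genes together took 1.23%, 1.29% and 1.29% of the counts in acidosis, against 0.83% and 0.848% in control and 0.706% and 0.674% with SRPIN340. Whether the level itself has a part in this was not tested.

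Of 10118 genes averaging 10 CPM or more, those whose level followed TBP most closely over the 7 samples were C15orf39, NEDD1, a centrosome protein, and ZC3H14, a poly(A)-binding zinc finger protein. The SD of their log2 ratio to TBP was 0.0354, 0.0464 and 0.0492, where the median over those genes was 0.459. C15orf39 averaged 40.2 CPM in control (SD 2.09, n = 2) and 31.3 CPM in acidosis (SD 2.53, n = 3). They were picked from many genes for this likeness, which is a description of these samples.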
